A study of Heterocephalus glaber with 3 samples.

Results

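MFAP4/FIBIN cells are cells of naked mole-rat lung tumours chosen by the transcripts of MFAP4, a glycoprotein that binds the microfibrils of elastic fibres, and FIBIN, a secreted protein first described in the fin bud of zebrafish. A cell was counted as one when both genes together gave at least 5 unique molecular identifiers (UMIs, counted mRNA molecules) per 10000 UMIs of the cell and at least 2 UMIs in all. Of 25044 cells that passed quality control 1070 were members. They were 312 of 8078 cells of replicate 1, 366 of 9015 cells of replicate 2 and 392 of 7951 cells of replicate 3.

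The tumours came from 3 naked mole-rats (Heterocephalus glaber), a long-lived African rodent, whose lungs had been infected with adenovirus for CRISPR editing, and the edits include inactivation of Rb and an inversion that joins Eml4 to Alk. All 3 animals were at 15 weeks after infection and form a single group, with age and sex not given in the sources used here. Per the labels' protocols, tumours were cut from the lung tissue by hand and dissociated, and each animal gave 1 droplet library with 3′ tags (10x Genomics). Every comparison is therefore between classes of cells within the same animals, and no lung of an uninfected animal was analysed here.

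Fibroblasts of the lung build the elastic fibres, collagens and basement membranes that let the tissue stretch and recoil. In mouse and human lung they fall into alveolar fibroblasts, which lie beside the surfactant-producing epithelium and carry TCF21, INMT and SCN7A, and adventitial fibroblasts, which form cuffs around airways and large vessels and carry SFRP2, CLEC3B and CD34. Both secrete growth factors, WNT and BMP antagonists and chemokines that act on neighbouring epithelial, vascular and immune cells.

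The libraries held 9500, 10000 and 10000 cell barcodes and 76093932, 86575320 and 91949365 UMIs in replicates 1, 2 and 3. Between 21 and 31 barcodes were shared by a pair of libraries, none with the same UMI total. MFAP4/FIBIN cells had a median of 5673, 5654 and 5071 UMIs in the 3 animals, against 4954, 5163 and 8430 UMIs in all other cells. IGF2/MMP3 cells, a second class of mesenchymal cells chosen in the same way by IGF2 and MMP3 and not members, numbered 480, 115 and 230, with medians of 18263, 15326 and 13977 UMIs. These IGF2/MMP3 cells are part of "all other cells" below.

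The share of MFAP4/FIBIN cells was 3.86% in replicate 1 (95% Wilson interval 3.46 to 4.31%), 4.06% in replicate 2 (3.67 to 4.49%) and 4.93% in replicate 3 (4.48 to 5.43%), a mean of 4.28 ± 0.57% (SD, n = 3). Intervals cover counting error only. The interval of replicate 3 lay above that of replicate 1 and reached that of replicate 2 only at its lower end. The lowest UMI total of a barcode was 1298 in replicate 1, 1150 in replicate 2 and 2174 in replicate 3. Replicate 3 thus held no cell under 2000 UMIs, while the shares of replicates 1 and 2 include such shallow cells. Among cells with at least 2000 UMIs the shares were 4.72%, 4.76% and 4.93%, so that the animals then differed by less. A lower count of MFAP4/FIBIN cells and a lower yield of them in dissociation cannot be told apart in these libraries.

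The values of the choosing genes are a description. MFAP4 was at 1119, 1230 and 1144 counts per 1000000 UMIs of the summed cells (CPM) in members and FIBIN at 1310, 1120 and 1238 CPM, with replicates 1, 2 and 3 in this order here and below. Both genes were found in 883 members, only MFAP4 in 82 and only FIBIN in 105. The median member had 21.8 UMIs of the pair per 10000, the lowest 5.04 and the highest 178. Just inside the threshold, 102 members had under 7.5 per 10000. Just outside it, 89 cells with at least 2 UMIs had 2.5 to 5 per 10000, and the highest of them had 4.99. Of all other cells 4.49% had any UMI of the pair, and 890 of these 1076 cells had exactly 1. SPARCL1, a matricellular protein, and IGF1, the insulin-like growth factor, were named with these cells from earlier results, so that their levels are a description too. SPARCL1 was at 1624, 1474 and 1901 CPM in members, against 28.3, 34.8 and 20.7 CPM in all other cells. IGF1 was at 295, 131 and 276 CPM in members, against 3.82, 3.09 and 2.35 CPM in all other cells. A gate on SPARCL1 and IGF1 at the same thresholds took 1080 cells, of which 779 were members, which is 72.1% of that gate and 72.8% of the members.

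The fibroblast name was checked against markers. Counts were summed per animal and class and tested with edgeR's quasi-likelihood test with the animal as a block, with p-values adjusted by Benjamini and Hochberg over all genes tested. Of the 15230 genes tested against all other cells 44.6% passed at an adjusted p of 0.05, 20.7% as higher in MFAP4/FIBIN cells and 23.9% as lower, so that each count below has to be read against that background. In 22.8% of these genes every animal's sum for MFAP4/FIBIN cells lay above every sum of all other cells, and in 20.1% below, which is the background for ranges that do not overlap. The median log2 fold change of all genes tested was −0.07, and with scaling by library size alone it moved by 0.12. Classes chosen by genes from the same cells differ by construction in whatever travels with those genes, so these p-values are not calibrated, and cells of 1 animal are not replicates. Of 11 fibroblast markers tested 10 were higher in MFAP4/FIBIN cells and none lower, with a list median of 1.51. Among cells with no UMI of PTPRC, CD3E, CD79A, JCHAIN or EPCAM, of which 222, 211 and 283 were members and 1100, 740 and 1044 were others, 4 were higher and 3 lower. Against IGF2/MMP3 cells, 4 of 10 fibroblast markers tested were higher and 5 lower (list median −0.144). In that comparison 19.1% of all genes tested were higher and 18.6% lower. The summed fibroblast list was at 7722, 4275 and 6599 CPM in members, against 13577, 9660 and 10853 CPM in IGF2/MMP3 cells. DCN, decorin, a proteoglycan that binds collagen fibrils, was at 2273, 934 and 2391 CPM in members, against 69.5, 47 and 61.4 CPM in all other cells (log2 fold change 4.75 ± 0.15, SE, edgeR adjusted p = 3.1e-09). Values in this form below are log2 fold changes of MFAP4/FIBIN cells over the cells they are set against. Replicate 2 was the lowest in both classes, and the ranges did not overlap. PDGFRA, the receptor of platelet-derived growth factor found on fibroblasts, was at 84.2, 80.4 and 61.1 CPM in members, against 7.21, 8.21 and 4.8 CPM in all other cells (3.38 ± 0.12). The word resident in the name of these cells could not be tested, since tumour-free lung was not analysed here.

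**Figure D1:**
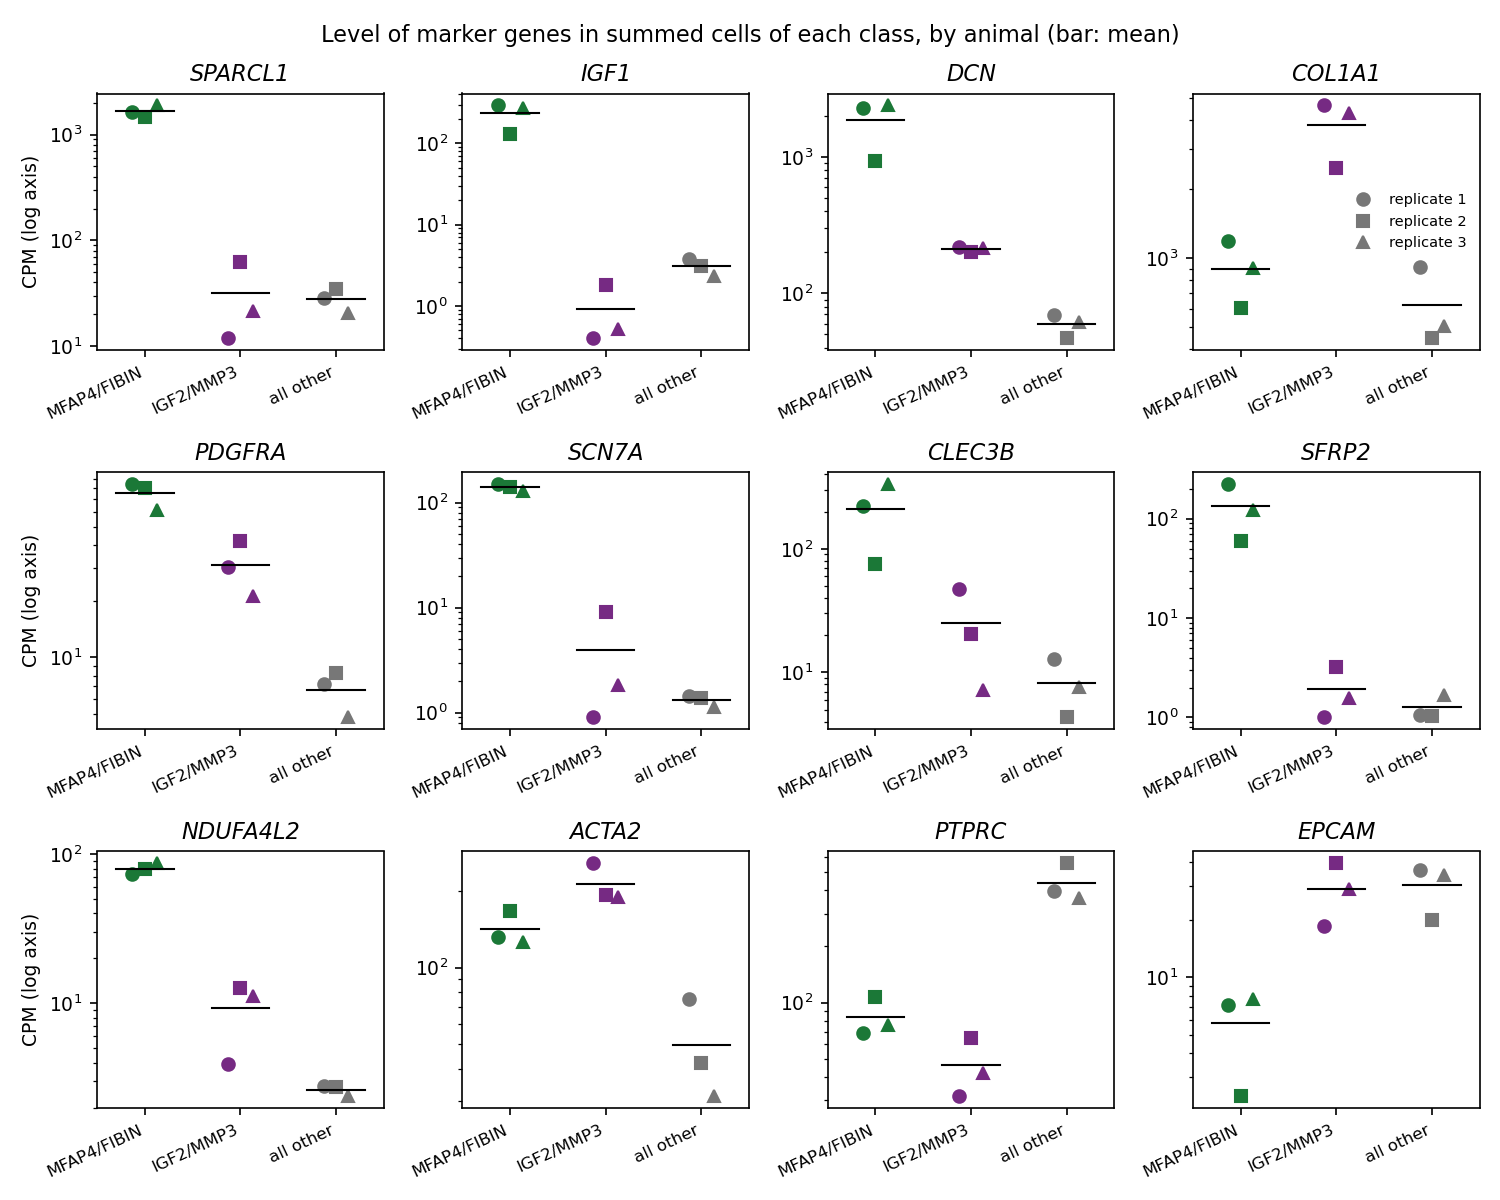
Counts in CPM (log axis) of 12 genes in the summed cells of MFAP4/FIBIN cells (green), IGF2/MMP3 cells (purple) and all other cells (grey). Each symbol is 1 animal and the bar is the mean of 3. DCN, PDGFRA, SCN7A, CLEC3B and SFRP2 of MFAP4/FIBIN cells stand above both other classes in every animal, COL1A1 stands below IGF2/MMP3 cells, and PTPRC stands between the IGF2/MMP3 cells and all other cells.

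Markers of both anatomical fibroblast types were higher in MFAP4/FIBIN cells. All 7 alveolar fibroblast markers tested passed as higher than in all other cells, with a list median of 4.84. INMT, an enzyme that methylates indoles, was at 68.4, 66.9 and 50.6 CPM in members, against 0.556, 0.514 and 0.328 CPM in all other cells (6.94 ± 0.15, edgeR adjusted p = 2.89e-10). SCN7A, a sodium channel subunit, was at 150.2, 142 and 129 CPM, against 1.43, 1.37 and 1.12 CPM (6.62 ± 0.12). The animals lay close together and the classes far apart for both genes. TCF21, the transcription factor of lung and kidney mesenchyme, was at 10.5, 7.17 and 8.9 CPM in members, against 0.0439, 0.0376 and 0.0253 CPM in all other cells (7.71 ± 0.52), which in members was 62 UMIs in 52 cells. Thinned to 2000 UMIs per cell, INMT was found in 13%, 11.3% and 8.42% of members and in 0%, 0.0519% and 0.0668% of CD3-gate cells, which were chosen by CD3D, CD3E and CD3G and should lack it. Thinning left out 12, 31 and 0 members and 581, 584 and 0 CD3-gate cells as too shallow. Unthinned, the shares were 20.5%, 23.2% and 18.9% of members and 0.188%, 0.279% and 0.2% of CD3-gate cells, whose median depth was 2726, 3031 and 3178 UMIs.

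Of 9 adventitial fibroblast markers tested 7 passed as higher in MFAP4/FIBIN cells than in all other cells, DPP4 as lower and SFRP4 not, with a list median of 4.45. SFRP2, a secreted WNT modulator, was at 223, 59.3 and 123 CPM in members, against 1.05, 1.04 and 1.68 CPM in all other cells (6.46 ± 0.30). IGFBP6, which binds IGF2 in preference to IGF1, was at 489, 247 and 347 CPM, against 7.51, 5.17 and 10.9 CPM (5.40 ± 0.21). Replicate 2 was the lowest of the animals among members for both genes, by up to 3.76-fold for SFRP2. CD34, a sialomucin of vessel-associated stroma, was at 78.4, 58.9 and 71.6 CPM, against 1.87, 2.91 and 1.64 CPM (4.92 ± 0.20), with no overlap. DPP4, a membrane peptidase that marks progenitor-like adventitial cells in mouse, was at 2.87, 2.79 and 2.02 CPM in members, against 6.33, 9.3 and 4.34 CPM in all other cells (−1.48 ± 0.29). For cells chosen by SPARCL1 and IGF1 in place of MFAP4 and FIBIN, DPP4 was at 0.61 ± 0.27 and did not pass (edgeR adjusted p = 0.0984).

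Transcription factors that pattern mesenchyme were mostly higher. Of 16 tested 14 passed as higher and MEOX1 as lower, with a list median of 4.91. FOXF2, a forkhead factor of gut and lung mesenchyme, was at 42.1, 84.8 and 24.7 CPM in members, against 0.292, 0.878 and 0.114 CPM (6.88 ± 0.20). MEOX2, a homeobox factor of mesoderm, was at 84.7, 71.7 and 49 CPM, against 0.789, 1.38 and 0.682 CPM (6.05 ± 0.19). HOXA5, needed for lung and airway patterning in mouse, was at 75.1, 69.3 and 97.5 CPM, against 1.34, 2.26 and 2.8 CPM (5.13 ± 0.17). No animal of one class reached the range of the other for these 3 genes. HOXB5 (5.79 ± 0.18), TBX5 (6.01 ± 0.48), which acts in lung bud mesenchyme of mouse, and TWIST2 (5.39 ± 0.34) passed as well.

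The matrix these cells transcribe was broad. Of 12 genes of elastic fibres and microfibrils 11 passed as higher than in all other cells (list median 3.15), of 11 basement membrane genes 11 (1.98), of 12 collagens 11 (1.11) and of 6 leucine-rich proteoglycans 6 (4.58). MFAP2, a microfibril component, was at 163, 121 and 184 CPM in members, against 3.55, 2.96 and 5.81 CPM in all other cells (5.15 ± 0.15). FBLN5, which links elastin to cells, was at 151, 135 and 127 CPM, against 5.32, 4.53 and 6.01 CPM (4.59 ± 0.15). LTBP4, needed for elastic fibre assembly in mouse lung, was at 135, 128 and 152 CPM, against 6.92, 8.7 and 7.15 CPM (4.07 ± 0.11). The highest animal was at most 1.525-fold above the lowest among members for each of these. Fibrillin FBN1 (2.76 ± 0.10), EFEMP1 (4.02 ± 0.12) and the crosslinking enzyme LOXL1 (3.78 ± 0.18) passed too. ELN, the elastin gene itself, was not among the genes measured by symbol here.

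Laminin chain LAMA2, a chain of muscle and mesenchymal basement membranes, was at 35.4, 31.5 and 43.3 CPM in members, against 0.453, 0.803 and 0.493 CPM in all other cells (5.85 ± 0.24). COL15A1, a collagen at the outer face of basement membranes, was at 49.7, 33.9 and 48.5 CPM, against 3.58, 4.92 and 2.45 CPM (3.50 ± 0.23). COL13A1, a membrane-anchored collagen that marks alveolar fibroblasts in mouse, was at 56.4, 81.2 and 55.4 CPM, against 0.336, 1.13 and 0.909 CPM (6.25 ± 0.24), with all members' sums above all others. The fibrillar collagen COL1A1 had the smallest fold of the 11 collagens that passed (0.43 ± 0.09), and its ranges overlapped. Among cells with no UMI of another lineage COL1A1 turned to −1.234, 4 collagens were higher and 6 lower, and 7 basement membrane genes were higher. Without the animal as a block 7 collagens were higher. POSTN, periostin, was at 820.3, 228 and 727 CPM in members, against 11.9, 12.2 and 9.95 CPM in all other cells (5.41 ± 0.33), and replicate 1 was 3.60-fold above replicate 2 among members. Among proteases and inhibitors, TIMP3 (3.70 ± 0.29), an inhibitor bound to matrix, and ADAMTS8 (5.54 ± 0.13) were higher in members. The collagenase MMP13 (−3.09 ± 0.25) and the gelatinase MMP9 (−3.35 ± 0.25) were lower. The ranges of MMP9 overlapped, and replicate 2 was 24.98-fold above the lowest animal in members and 21.3-fold in all other cells.

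Ligands for neighbouring cells formed a further group. Of 24 niche growth factors 18 passed as higher in MFAP4/FIBIN cells than in all other cells and 2 as lower, with a list median of 2.58. Among cells with no UMI of another lineage 11 were higher and 1 lower. FGF7, a ligand for the FGF receptor of epithelium, was at 66, 45 and 37.2 CPM in members, against 0.205, 0.627 and 0.24 CPM in all other cells (6.98 ± 0.31, edgeR adjusted p = 2.54e-08). FGF10, its relative needed for lung budding in mouse, was at 9.57, 13.1 and 6.88 CPM, against 0.409, 0.59 and 0.0758 CPM (4.84 ± 0.45). ANGPT1, a ligand of the endothelial receptor TEK, was at 31.1, 39.8 and 26.7 CPM, against 2.37, 3.11 and 2.87 CPM (3.42 ± 0.19). The ranges of the classes did not overlap for any of these. FGF7 was found in 13%, 8.66% and 6.89% of members thinned to 2000 UMIs (25.3%, 18.9% and 18.6% unthinned), and in none of the thinned CD3-gate cells (0%, 0.0398% and 0% unthinned). RSPO2, a WNT amplifier, gave 15 UMIs in 14 members and none in all other cells, which makes it at least 160.6-fold higher when 3 counts over that class are taken as the floor. The neuregulin NRG1 (−1.12 ± 0.27) and TGFB1 (−0.45 ± 0.11) were lower in members, and the ranges of TGFB1 overlapped. Neither held without every animal, NRG1 having an edgeR adjusted p of 0.054 without replicate 1 and TGFB1 of 0.0619 without replicate 2.

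Antagonists of WNT and BMP signalling were higher in 9 of 11 cases and lower in 1, NOG, with a list median of 3.82. SFRP1 was at 345, 269.6 and 221 CPM in members, against 3.64, 5.61 and 3.69 CPM in all other cells (5.89 ± 0.18). WIF1, which binds WNT ligands directly, was at 222, 99.2 and 142 CPM, against 2.41, 6.85 and 0.518 CPM (5.83 ± 0.58). GREM1, a BMP antagonist, was at 267, 121 and 154 CPM, against 3.95, 4.59 and 1.98 CPM (5.56 ± 0.24), and again no animal of one class reached the other. In the IGF axis, IGFBP7 (4.41 ± 0.10) and IGFBP4 (4.01 ± 0.21), which bind IGFs or sit in the matrix, were higher in members, and IGF2R, which clears IGF2, was lower (−0.41 ± 0.10) with overlapping ranges. IGF2R did not pass in 4 alternatives, with folds of −0.39 without the animal as a block, −0.33 among cells with no UMI of another lineage, −0.22 with cells matched on UMIs and −0.29 with scaling by library size (edgeR adjusted p between 0.0530 and 0.199). Of 14 growth factor receptors 11 were higher, among them FGFR1 (2.45 ± 0.14), NTRK2 (3.82 ± 0.13) and the oncostatin M receptor OSMR (2.68 ± 0.11), and 1 was lower, ALK.

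All 6 complement genes tested were higher in MFAP4/FIBIN cells than in all other cells (list median 3.16), and 7 of 10 chemokines and cytokines were, with 1 lower (list median 2.80). C7, a part of the membrane attack complex, was at 649, 572 and 415 CPM in members, against 7.59, 9.6 and 4.47 CPM in all other cells (6.16 ± 0.13). C1R, the protease that starts the classical pathway, was at 862, 935 and 539 CPM, against 44, 41.7 and 25.9 CPM (4.26 ± 0.11). Members thinned to 2000 UMIs carried C7 in 60.7%, 59.7% and 51.3% of cells (82.7%, 84.7% and 77.6% unthinned), against 0.517%, 0.519% and 0.401% of CD3-gate cells (0.704%, 1.16% and 0.801% unthinned). CCL19, a ligand of CCR7 that guides T cells and dendritic cells, was at 1216, 804 and 483 CPM in members, against 29.7, 18.1 and 3.04 CPM (5.87 ± 0.32). CCL11, an attractant of eosinophils, was at 711, 199 and 212 CPM, against 22.4, 13.8 and 1.6 CPM (5.07 ± 0.44). CCL2, an attractant of monocytes, was at 2045, 2771 and 996 CPM, against 207, 169 and 106 CPM (3.40 ± 0.17). Replicate 3 was the lowest of the animals for CCL19 and CCL2 in both classes. PTX3, a pentraxin that binds complement and stabilises hyaluronan matrix, was at 690.2, 640.3 and 283 CPM, against 29.5, 29.9 and 18.2 CPM (4.19 ± 0.15).

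Hyaluronan is a sugar polymer for which naked mole-rat fibroblasts are known, because they make it in very long chains. HAS2, the synthase of those chains, was at 69.8, 63.7 and 38.4 CPM in members, against 7.19, 3.45 and 3.21 CPM in all other cells (3.57 ± 0.19, edgeR adjusted p = 1.28e-07). Its proteoglycan partner VCAN was at 349.6, 291 and 393 CPM, against 92.6, 87.9 and 59.2 CPM (2.00 ± 0.15). HAS3 gave no UMI in members, which in sums of 2090670, 2511396 and 2471858 UMIs allows up to 1.43, 1.19 and 1.21 CPM at 3 counts. The list as a whole passed in 3 of 11 genes as higher and in 2 as lower (list median 0.30), and with cells chosen by SPARCL1 and IGF1 in 6 as higher.

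Genes of dividing cells were lower. All 14 genes of DNA replication and mitosis tested were lower in MFAP4/FIBIN cells than in all other cells (list median −1.995). TOP2A, the topoisomerase of dividing cells, was at 37.3, 79.2 and 29.5 CPM in members, against 147, 269.9 and 141 CPM in all other cells (−2.10 ± 0.13), without overlap. UBE2C was at 37.3, 30.7 and 32.4 CPM, against 146, 119 and 127 CPM (−2.09 ± 0.11). Of 13 genes associated with the tumours of this series, a list drawn from earlier results of these data, 7 were lower and 3 higher in members. With cells matched on UMIs 1 was lower, and among cells with no UMI of another lineage none was higher. Of the markers of other lineages, 8 of 8 immune and 6 of 7 epithelial markers were lower in members, and with cells matched on UMIs 2 epithelial markers were. Lists that were mixed are interferon response (4 higher and 2 lower of 9), antigen presentation (3 and 2 of 10), retinoid and lipid handling (5 and 5 of 12), glycolysis and hypoxia (4 and 5 of 13) and cell cycle brakes (3 and 2 of 9). Among cells with no UMI of another lineage 1 glycolysis gene and 5 cell cycle brakes were higher and 1 retinoid and lipid gene was lower. Without the animal as a block no interferon gene passed. Of 8 myofibroblast and smooth muscle genes 6 were higher and 2 lower, and of 6 genes of activated tumour fibroblasts 4 and 2. Among cells with no UMI of another lineage 2 of each of these lists were higher. All 8 genes of dissociation stress were higher in members (list median 0.94), FOS at 1759, 1502 and 1126 CPM, against 738, 828 and 555 CPM (0.92 ± 0.10), and without the animal as a block 5 of the 8 passed. Their part in the other results was not tested.

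Outside the lists, the 12 highest genes by fold that moved one way in 3 of 3 animals and had at least 20 CPM included several secreted or membrane proteins. C1QL1, a C1q-like protein known in the brain, was at 826, 822 and 850 CPM in members, against 6.73, 8.12 and 5.41 CPM in all other cells (6.84 ± 0.13). A2M, a broad protease inhibitor of plasma, was at 4181, 5888 and 3768 CPM, against 49.3, 55.1 and 42.7 CPM (6.41 ± 0.13). SVEP1, a large matrix protein, was at 167, 153 and 122 CPM, against 1.43, 1.86 and 1.05 CPM (6.56 ± 0.13). The 3 animals of each class lay within 1.77-fold of each other for these genes. ENPEP, an aminopeptidase that trims angiotensin II (6.62 ± 0.16), IGSF10 (6.63 ± 0.26) and PID1 (6.32 ± 0.17) were the other genes of that set outside the lists. At the lower end stood SPINK5 (−4.26 ± 0.23), SCGB3A2 (−4.21 ± 0.15), SPP1 (−3.42 ± 0.32), IL10 (−3.35 ± 0.21), MMP12 (−3.17 ± 0.15), KRT14 (−3.27 ± 0.28) and IGKC (−3.15 ± 0.20), genes of epithelium, macrophages or lymphoid cells, and CEP55 (−3.45 ± 0.24), a gene of cell division. The ranges of SPP1 overlapped, and replicate 2 was the highest animal in both classes. With cells matched on UMIs SCGB3A2 was at −0.78 ± 0.34 and no longer passed (edgeR adjusted p = 0.0866).

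MFAP4/FIBIN cells were also set beside the IGF2/MMP3 cells, which also express collagen genes and had more ALK, the kinase gene of the inversion. MFAP4/FIBIN cells had lower fibrillar collagens and glycolysis genes and higher IGF1, WNT and BMP antagonists, elastic fibre genes and chemokines. Of 10522 genes tested 37.7% passed, 19.1% as higher in MFAP4/FIBIN cells and 18.6% as lower. The ranges lay apart in 17.3% of these genes above and in 24.4% below, and the median log2 fold change of all genes tested was 0.00. IGF2/MMP3 cells were deeper. They were fewer than members in replicates 2 and 3 and more numerous in replicate 1 (480 against 312). In all, 82 members (7.66%) passed both gates and were kept as members. IGF2, MMP3, MFAP4 and FIBIN were not tested here.

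Collagen genes divided in this comparison. Of 12 tested 4 were higher and 8 lower in MFAP4/FIBIN cells (list median −1.36). COL1A1 was at 1182, 602 and 906 CPM in MFAP4/FIBIN cells, against 4662, 2474 and 4320 CPM in IGF2/MMP3 cells (log2 fold change −2.004 ± 0.14, SE, edgeR adjusted p = 1.41e-05). COL3A1, the other main fibril collagen, was at 1374, 706 and 905 CPM, against 2562, 2611 and 2425 CPM (−1.31 ± 0.19). The highest animal of the MFAP4/FIBIN cells was below the lowest of the IGF2/MMP3 cells for both. COL13A1 was at 56.4, 81.2 and 55.4 CPM, against 0.403, 0.91 and 0.259 CPM (7.05 ± 0.26), and COL15A1 was 5.51 ± 0.29. Decorin differed in the other direction from COL1A1, with 2273, 934 and 2391 CPM in MFAP4/FIBIN cells, against 218, 202 and 215 CPM in IGF2/MMP3 cells (3.12 ± 0.27). Of 12 elastic fibre genes 9 were higher (list median 1.71), led by FBLN5 (5.56 ± 0.34), ADAMTSL2 (4.13 ± 0.54) and LTBP4 (3.37 ± 0.29), and LOXL2 was lower (−2.49 ± 0.20). Tenascin TNC was lower (−1.38 ± 0.19) and POSTN higher (3.33 ± 0.60). Collagenase MMP13 was at 3.35, 7.17 and 4.05 CPM, against 190.1, 163 and 120 CPM (−4.90 ± 0.23). MGP, an inhibitor of matrix calcification, was at 6297, 4214 and 5520 CPM, against 35.5, 139 and 44.6 CPM (6.56 ± 0.51), and DPT, dermatopontin, gave 683 UMIs in MFAP4/FIBIN cells and 11 in IGF2/MMP3 cells.

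**Figure D2:**
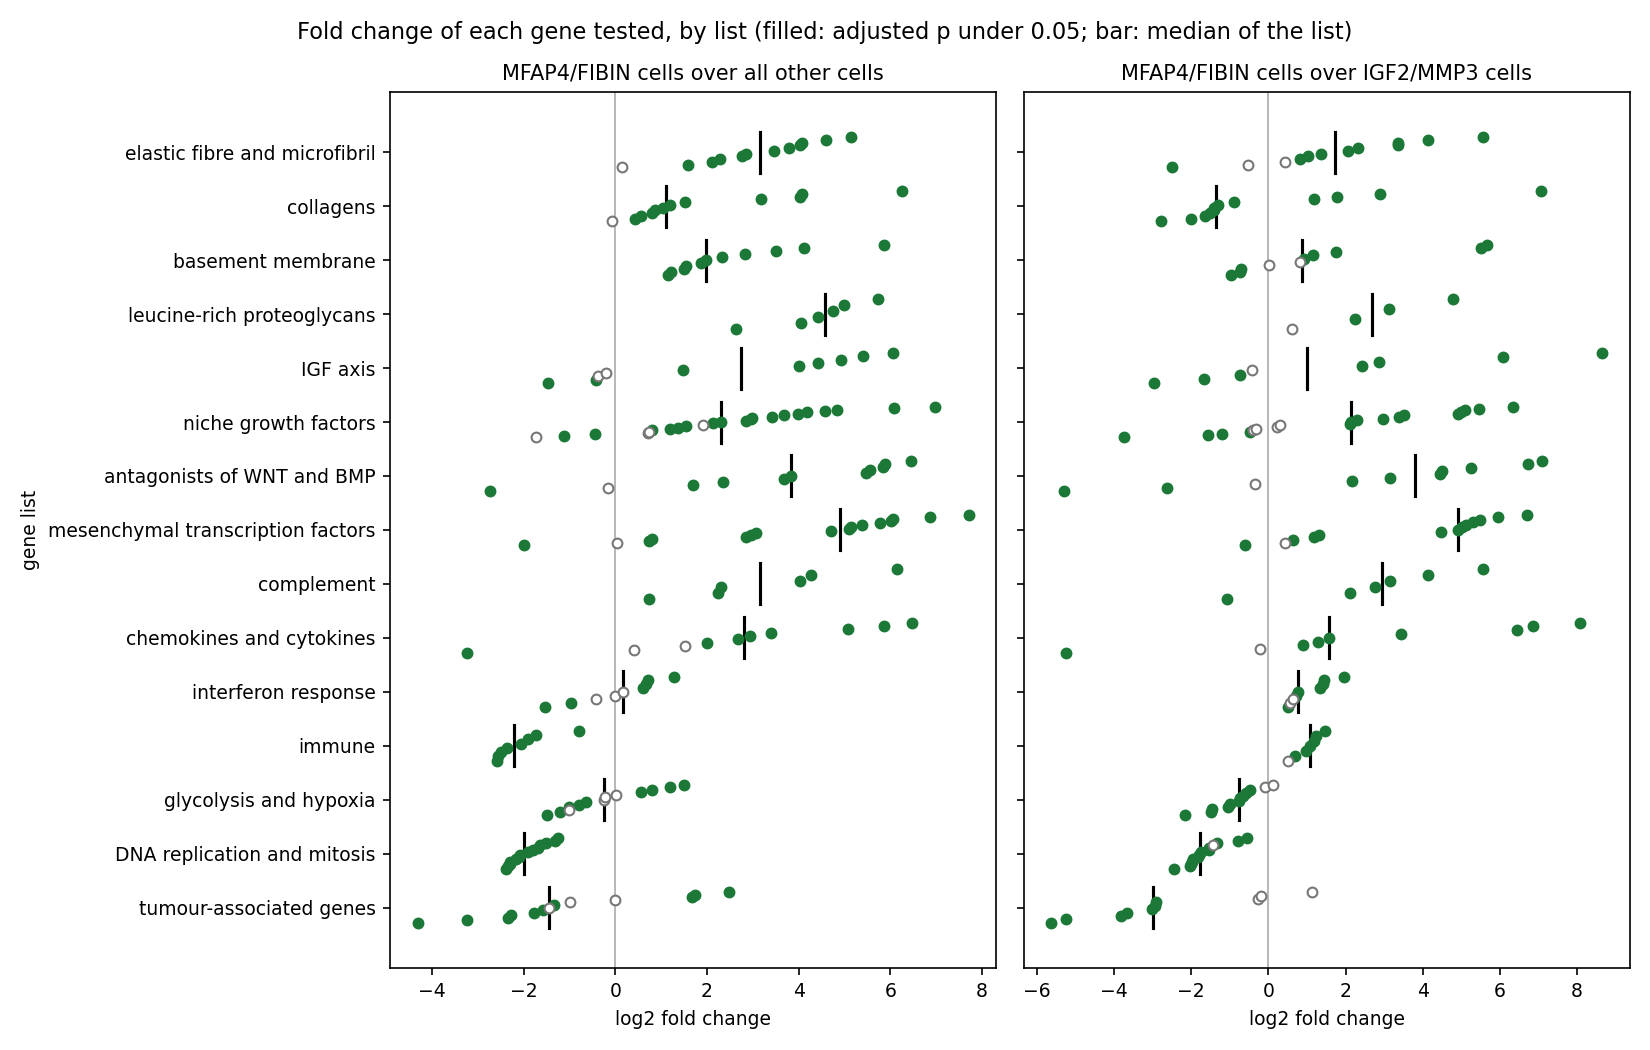
Log2 fold change (x axis) of each gene tested in 15 lists (y axis), for MFAP4/FIBIN cells over all other cells on the left and over IGF2/MMP3 cells on the right. Filled points passed at an adjusted p of 0.05, open points did not, and the bar is the list's median. RSPO2, with no UMI in all other cells, is not drawn. The collagen median lies at 1.11 on the left and at −1.36 on the right, and the mitosis medians lie below 0 in both.

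IGF1 was at 295, 131 and 276 CPM in MFAP4/FIBIN cells, against 0.403, 1.82 and 0.518 CPM in IGF2/MMP3 cells, again as a description. IGF2, by which the IGF2/MMP3 cells were chosen, was at 73.7, 48.2 and 88.6 CPM, against 915, 953 and 952 CPM. IGFBP6 was higher (6.09 ± 0.33) and IGFBP2 lower (−1.66 ± 0.30) in MFAP4/FIBIN cells. Of 10 WNT and BMP antagonists 7 were higher and 2 lower (list median 3.80). WIF1 was at 222, 99.2 and 142 CPM, against 0.302, 5.92 and 0.518 CPM (7.09 ± 0.65), and SFRP1 at 345, 269.6 and 221 CPM, against 3.22, 19.6 and 7.26 CPM (5.25 ± 0.46). NOG, noggin, which also blocks BMPs, went the other way with 2.87, 2.39 and 2.83 CPM in MFAP4/FIBIN cells, against 116, 165 and 67.1 CPM in IGF2/MMP3 cells (−5.31 ± 0.26, edgeR adjusted p = 4.96e-06). GREM1 was higher (4.50 ± 0.84). Replicate 2 was the highest of the IGF2/MMP3 sums for SFRP1, WIF1 and GREM1, and no animal of one class reached the range of the other for these genes and NOG. Without replicate 3 the edgeR adjusted p was 0.0568 for GREM1 and 0.0550 for POSTN at nearly the same fold (4.50 and 3.26). Of 19 niche growth factors 11 were higher and 4 lower (list median 2.14), with FGF7 (6.33 ± 0.43), RSPO3 (5.46 ± 0.42), ANGPT1 (5.08 ± 0.39) and HGF (4.98 ± 0.55) among the higher and NRG1 (−1.56 ± 0.30) and PDGFA (−1.19 ± 0.19) among the lower. With cells matched on UMIs 6 of them were higher, and IGFBP2 no longer passed at nearly the same fold (−1.61 ± 0.57, edgeR adjusted p = 0.0936). Among cells with no UMI of another lineage IGFBP2 was at −0.99 ± 0.61 (edgeR adjusted p = 0.253). Without the animal as a block 1 niche growth factor was lower.

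**Figure D3:**
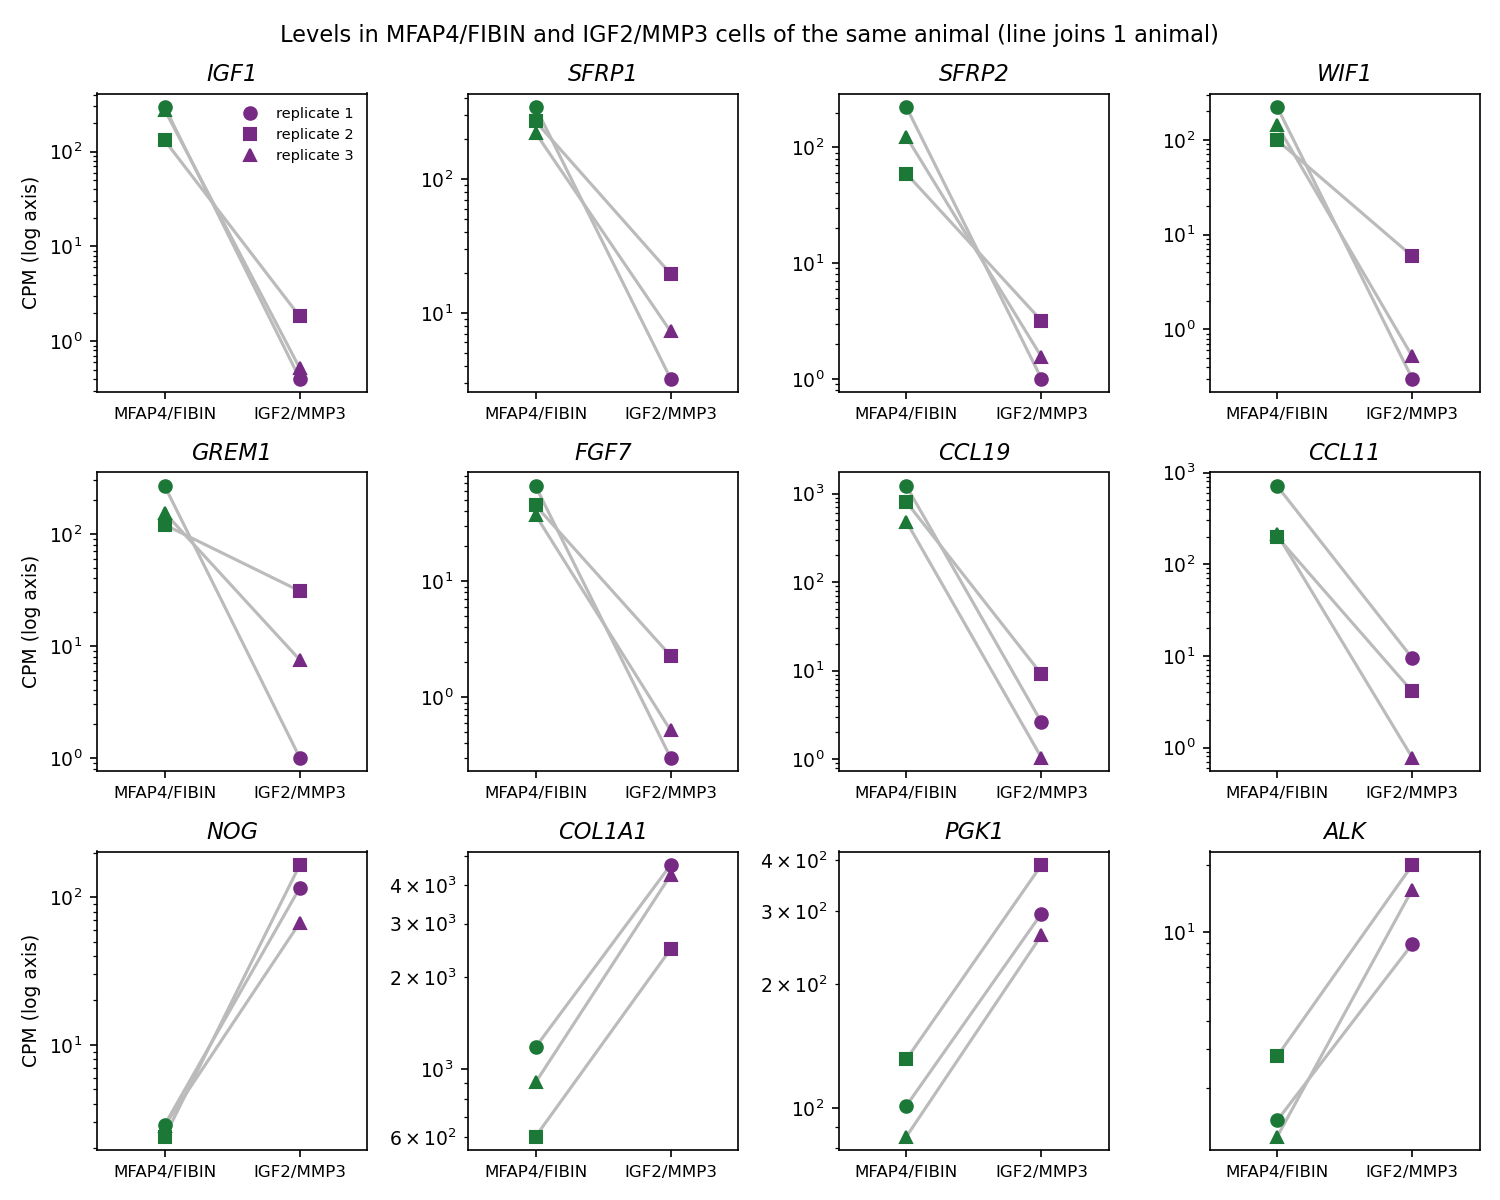
Counts in CPM (log axis) of 12 genes in MFAP4/FIBIN cells (left, green) and IGF2/MMP3 cells (right, purple) of the same animal, joined by a line for each of 3 animals. NOG, COL1A1, PGK1 and ALK lie lower in MFAP4/FIBIN cells in every animal and the other 8 genes lie higher.

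Positional transcription factors differed as well. Of 13 tested 11 were higher in MFAP4/FIBIN cells and ZEB1 was lower (list median 4.90, which is HOXB5 itself). MEOX2 was at 84.7, 71.7 and 49 CPM in MFAP4/FIBIN cells, against 0.806, 3.19 and 2.33 CPM in IGF2/MMP3 cells (5.47 ± 0.36). HOXA5 was at 75.1, 69.3 and 97.5 CPM, against 1.21, 5.01 and 2.07 CPM (5.30 ± 0.33). TCF21 gave 62 UMIs in MFAP4/FIBIN cells and 1 in IGF2/MMP3 cells, a ratio of CPM of 140.1 (exact 95% counting interval 24.2 to 5622). TBX5 gave 66 and 2 UMIs, a ratio of 74.6 (19.8 to 629). INMT gave 436 and 1 UMIs, a ratio of 985 (176 to 39002). IRX5, an Iroquois homeobox factor, was lower with 0.478, 0.796 and 1.21 CPM in MFAP4/FIBIN cells, against 34.4, 27.3 and 23.8 CPM in IGF2/MMP3 cells (−4.92 ± 0.34). SFRP4 (−2.63 ± 0.35) was the adventitial marker that was lower, while 7 of 8 were higher (list median 5.01), CLEC3B and CD34 among them (3.14 ± 0.58 and 5.53 ± 0.34). With cells matched on UMIs the edgeR adjusted p was 0.107 for SFRP4 and 0.0558 for CLEC3B.

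ALK and most tumour-associated genes were lower in MFAP4/FIBIN cells. ALK was at 3, 7 and 3 UMIs or 1.44, 2.79 and 1.21 CPM in MFAP4/FIBIN cells, against 88, 44 and 60 UMIs or 8.86, 20 and 15.6 CPM in IGF2/MMP3 cells (−2.94 ± 0.33, edgeR adjusted p = 0.000207). In all members together the level was 1.84 CPM (exact 95% Poisson interval 0.979 to 3.14), against 12.01 CPM (10.4 to 13.8) in IGF2/MMP3 cells and 6.10 CPM (5.79 to 6.43) in all other cells. Thinned to 2000 UMIs, ALK was found in 0%, 0.597% and 0.255% of members, against 2.04%, 1.80% and 1.74% of IGF2/MMP3 cells and 0.258%, 0.571% and 0.2% of CD3-gate cells, so that members were at the level of background. Unthinned, the shares were 0.962%, 1.64% and 0.765% of members, 15.4%, 23.5% and 20.4% of IGF2/MMP3 cells and 0.376%, 1.31% and 0.334% of CD3-gate cells. The tag counts the 3′ end of ALK and does not show whether the inverted gene gave the transcript. Of 10 tumour-associated genes 7 were lower and none higher (list median −2.98). That list was drawn from earlier results of these data, so that its count is a description. SOX2 was at 0.957, 2.39 and 0.405 CPM, against 23.8, 24.1 and 9.07 CPM (−3.82 ± 0.35), and HMGA2 at 0, 0.398 and 2.43 CPM, against 12.6, 12.3 and 15 CPM (−3.65 ± 0.55). Of 12 glycolysis and hypoxia genes 10 were lower and none higher (list median −0.75). PGK1, a glycolytic kinase, was at 101, 131 and 85.4 CPM in MFAP4/FIBIN cells, against 296, 388 and 262 CPM in IGF2/MMP3 cells (−1.49 ± 0.13), and PGAM1 was −2.16 ± 0.14. Of 14 replication and mitosis genes 13 were lower (list median −1.77), with TOP2A at 37.3, 79.2 and 29.5 CPM, against 98.7, 219 and 223 CPM (−1.82 ± 0.25). With cells matched on UMIs within each animal, 1 of these genes and 10 glycolysis genes were lower. Matching left 177, 82 and 142 cells of each class, and TOP2A was then at 0.21 ± 0.36 (edgeR adjusted p = 0.755). Without the animal as a block 9 replication and mitosis genes and 5 glycolysis genes were lower. CDKN1A, an inhibitor of cyclin-dependent kinases, was higher with 147, 229.8 and 168 CPM in MFAP4/FIBIN cells, against 45.7, 104 and 56.8 CPM in IGF2/MMP3 cells (1.55 ± 0.16). CDKN2B, an inhibitor of CDK4 and CDK6, was lower with 0.478, 4.78 and 1.62 CPM, against 30.4, 46.4 and 27.2 CPM (−3.84 ± 0.33).

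The lower end of the fold changes against IGF2/MMP3 cells held genes of secretory granules and nerve cells, and genes of epithelium. The epithelial genes were SPINK5 (−4.81 ± 0.31) and KRT14 (−3.80 ± 0.34). KRT14 was at 9.57, 25.5 and 47.3 CPM in MFAP4/FIBIN cells, against 354, 191 and 706 CPM in IGF2/MMP3 cells. SCG2, secretogranin, gave 2 UMIs in MFAP4/FIBIN cells and 984 in IGF2/MMP3 cells, a ratio of CPM of 218 in favour of the IGF2/MMP3 cells (exact 95% counting interval 60.1 to 1800). VGF, a neuropeptide precursor, was at 9.09, 10.8 and 7.28 CPM in MFAP4/FIBIN cells, against 125, 285 and 148 CPM in IGF2/MMP3 cells (−4.24 ± 0.20). STMN2, a microtubule regulator of nerve cells, was at 12.9, 6.77 and 10.1 CPM, against 172, 101 and 170.3 CPM (−3.80 ± 0.16). GAL, the galanin precursor, was at 6.7, 11.9 and 5.26 CPM, against 170.2, 68.7 and 179 CPM (−3.92 ± 0.38). CD70, a ligand of CD27 on T cells, was at 5.26, 11.9 and 3.24 CPM, against 142, 265 and 55.7 CPM (−4.41 ± 0.19). All of these were lower in 3 of 3 animals without overlap of the classes. They were named by the rule on fold and level, and no list of nerve genes was tested. Of 4 epithelial markers tested in this comparison 2 were lower in MFAP4/FIBIN cells and none higher.

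Immune-facing genes were higher in MFAP4/FIBIN cells than in IGF2/MMP3 cells. Of 9 chemokines and cytokines 7 were higher and CSF2 was lower (list median 1.56), with CCL19 at 1216, 804 and 483 CPM, against 2.62, 9.1 and 1.04 CPM (8.07 ± 0.44), and CCL11 at 711, 199 and 212 CPM, against 9.47, 4.1 and 0.777 CPM (6.44 ± 0.31). CSF2, a growth factor of myeloid cells, gave 3 and 293 UMIs, a ratio of 43.2 in favour of the IGF2/MMP3 cells (14.6 to 211). Of 6 complement genes 5 were higher and CLU was lower (−1.08 ± 0.17), with CFD, the protease of the alternative pathway, at 1729, 1799 and 2057 CPM, against 95, 140.2 and 105 CPM (4.14 ± 0.19). Of 9 interferon response genes 7 were higher (list median 0.76) and of 9 antigen presentation genes 6 (0.63). With cells matched on UMIs these counts were 1 and 3, and without the animal as a block 0 and 1. IFIT2 was at 302, 231 and 25.5 CPM, against 114, 50.1 and 4.41 CPM (1.97 ± 0.22), and replicate 3 was the lowest in both classes, with replicate 1 above it by 11.9-fold in MFAP4/FIBIN cells and 25.9-fold in IGF2/MMP3 cells, so that the ranges overlapped. CD274, the ligand of the checkpoint receptor PD-1, was at 59.3, 96 and 38 CPM, against 7.15, 13.7 and 4.41 CPM (3.05 ± 0.17), without overlap. HAS2 was higher too (1.35 ± 0.19). Markers of immune cells were higher as well in 6 of 7 cases (list median 1.07). The count was 3 with cells matched on UMIs, 2 among cells with no UMI of another lineage and 1 without the immune-transcript group of members described below. In all cells of both classes, PTPRC was at 68.9, 108 and 76.1 CPM, against 31.6, 65.1 and 42.2 CPM. The summed immune list, which includes CD74, was at 4307, 8371 and 2355 CPM, against 1824, 4599 and 1149 CPM. The part of immune markers in these results was not tested. All 8 dissociation stress genes were higher as well (list median 1.505).

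Within the MFAP4/FIBIN cells, clustering without the choosing genes gave 5 groups, which are described without a test because they were drawn from the same counts. A CLEC3B group of 264 cells was led by CLEC3B, SCARA5, ASPN and ALDH1A3. It was named as the group with the highest adventitial markers, so that its rank on them is not a finding. Their sum was 2610 CPM, against 343 to 684 CPM in the other groups. An INMT group of 153 cells was led by MOXD1, VEGFD, ABCA9 and INMT. It was named in the same way by the alveolar markers, whose sum was 867 CPM against 137 to 265 CPM. The immune-transcript group below was named by the immune list without CD74, which includes TYROBP and PTPRC. A CCL2 group of 213 cells was led by IL11, GBP1, SLC2A6 and SLITRK6, a PCP4 group of 316 cells by SFTPC, PIGR, PCP4 and FCN3, and an immune-transcript group of 124 cells by LTF, RETN and CRISP3. A second seed gave a partition with an adjusted Rand index of 0.894 to this one, a resolution of 0.3 one of 0.705 and a resolution of 1 one of 0.567. With interferon and immediate early genes left out of the clustering the index was 0.714, and the CLEC3B, INMT and immune-transcript groups each stayed together in 98.4% or more of their cells. At a resolution of 0.3, 73.9% of the CLEC3B group, 96.1% of the INMT group and 58.9% of the immune-transcript group stayed in 1 group, and at a resolution of 1 these shares were 42.0%, 95.4% and 62.9%.

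**Figure D4:**
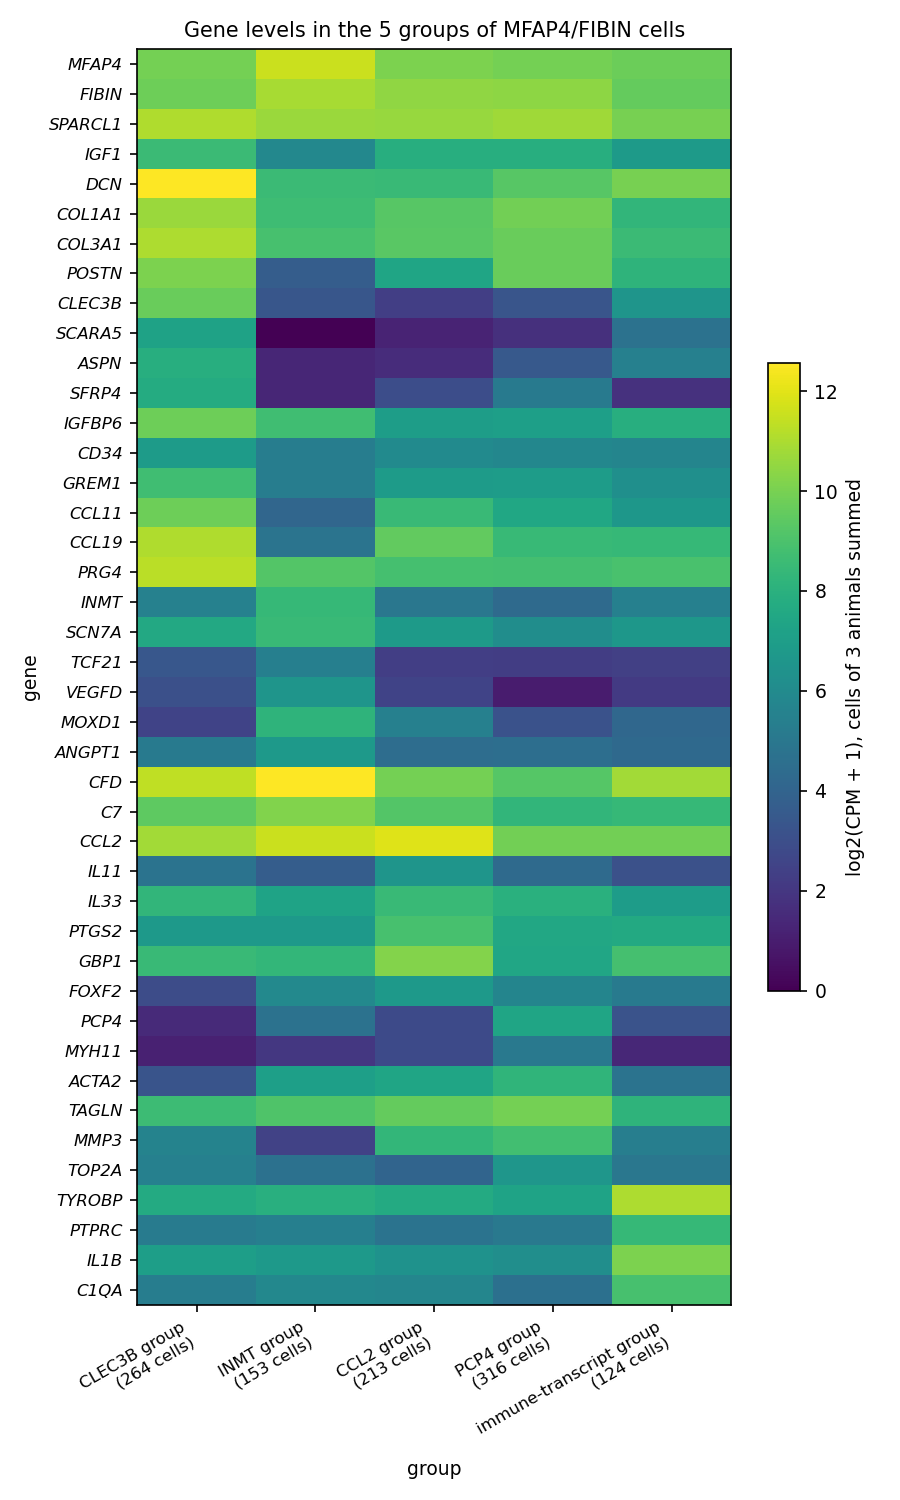
Level of 42 genes (rows, log2 of CPM plus 1, colour) in the 5 groups of MFAP4/FIBIN cells (columns), counts of 3 animals summed. DCN reaches 5884 CPM in the CLEC3B group, INMT 342 CPM in the INMT group, CCL2 3879 CPM in the CCL2 group and TYROBP 2044 CPM in the immune-transcript group.

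In the CLEC3B group DCN was at 5086, 4344 and 8393 CPM in the 3 animals, against 575, 200.4 and 449 CPM in the INMT group and 675, 319 and 689.5 CPM in the PCP4 group. COL1A1 was at 1637 CPM in the CLEC3B group, against 398 CPM in the INMT group and 620.3 CPM in the CCL2 group. CCL19 was at 2804, 1989 and 1207 CPM in the CLEC3B group, against 26.9, 7.03 and 59.6 CPM in the INMT group. CCL11 was at 1480, 479 and 309 CPM, highest in replicate 1, against 37.6, 14.1 and 0 CPM. GREM1 was at 449, 369 and 430.4 CPM, against 108, 3.52 and 27.1 CPM, where replicate 1 was 30.6-fold above replicate 2. In every animal the CLEC3B group was the higher for these 3 genes. PRG4, lubricin, a lubricant of joints and serous surfaces, was at 2431 CPM in the CLEC3B group and between 448 and 589 CPM in the other groups. IGF1 was at 375 CPM in the CLEC3B group and at 56.5 CPM in the INMT group. MSLN, a marker of mesothelium, was also among the leading genes of the CLEC3B group, where it was at 132, 4.99 and 2.05 CPM in the 3 animals and so high in replicate 1 alone. Summed over all members, the 4 mesothelial markers measured were at 1047, 550.3 and 1284 CPM, against 4.94, 72.4 and 38.4 CPM in IGF2/MMP3 cells and 48.2, 52.4 and 115 CPM in all other cells. Nearly all of the sum in members was PRG4, at 994.9, 547.1 and 1278 CPM, while WT1 and CALB2 were at or near 0. Of the 4 markers 1, PRG4, was higher than in all other cells, and both markers tested against IGF2/MMP3 cells, PRG4 and MSLN, were higher. MSLN was 16.1-fold higher in replicate 1 than in replicate 2 among members, and its ranges overlapped with those of both comparison classes. Their part in these results was not tested.

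The INMT group had the highest level of the choosing gene MFAP4, 3012 CPM against 841 to 1090 CPM in the others. SCN7A was at 362 CPM there, TCF21 at 41.2 CPM and VEGFD, a ligand of lymphatic vessels, at 93.1 CPM, against 192, 9.7 and 7.28 CPM in the CLEC3B group. Its complement factor CFD was at 6032 CPM, its fibril collagen COL3A1 at 473 CPM and its CD274 at 214 CPM, against 2643, 2066 and 33.4 CPM in the CLEC3B group. POSTN was at 12.2 CPM in the INMT group and at 1067 CPM in the CLEC3B group. In replicates 1 and 2, which held all but 1 of its cells, the CCL2 group had the highest PTGS2, GBP1 and HAS2 of the 5 groups, with 477, 1208 and 101 CPM over all its cells. CCL2 was at 3349 and 4071 CPM there, against 3393 and 3657 CPM in the INMT group of the same animals, so that the CCL2 group was the higher in replicate 2 only.

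The groups were unevenly spread over the animals. The CLEC3B group made up 35.3%, 16.9% and 23.5% of the members of replicates 1, 2 and 3, and the INMT group 12.5%, 21.0% and 9.44%. The CCL2 group made up 21.8% and 39.3% in replicates 1 and 2 and was 1 cell in replicate 3, where the PCP4 group made up 54.3%, against 19.6% and 11.5%. The immune-transcript group was even, with 10.9%, 11.2% and 12.5%. Animals were not integrated, so an animal and a cell state cannot be told apart for the CCL2 and PCP4 groups. Interferon genes were low in replicate 3 in members and in all other cells alike, with ISG15 at 1092, 395 and 132 CPM in members, against 838, 309 and 120.1 CPM in all other cells.

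**Figure D5:**
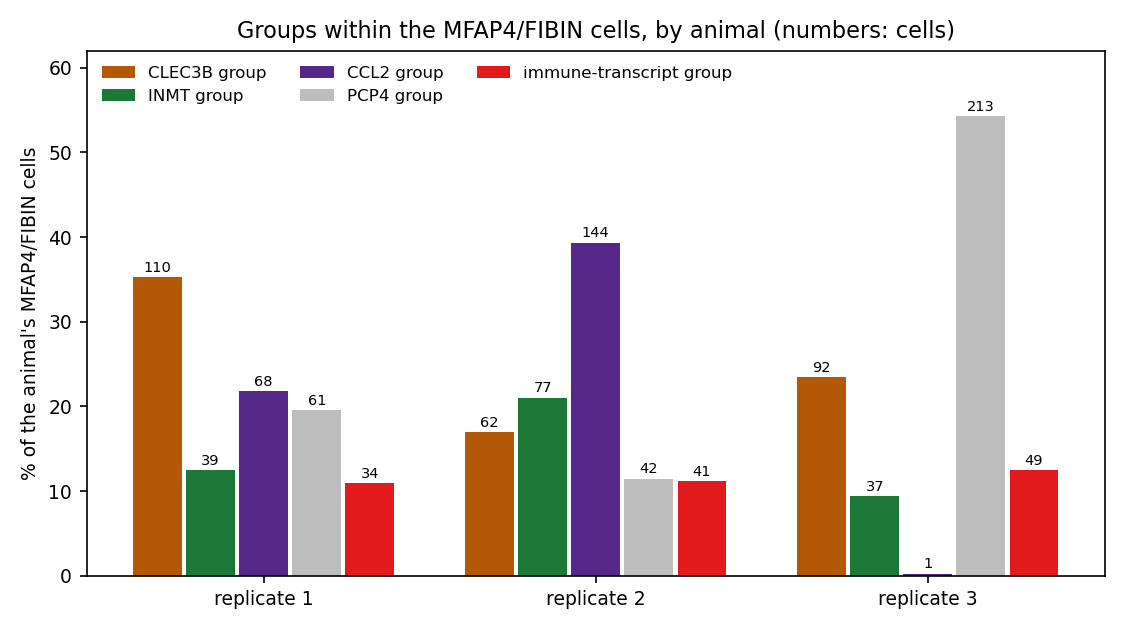
Share of each animal's MFAP4/FIBIN cells (bar height, percent) that fell in each of 5 groups, with the number of cells above the bar. The CCL2 group runs from 39.3% in replicate 2 to 1 cell in replicate 3, and the immune-transcript group lies between 10.9% and 12.5% in all 3.

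IGF1, CXCL14 and SFRP2 were lowest in replicate 2 among all members, and also within the CLEC3B group and within the INMT group. Within the CLEC3B group, IGF1 was at 346, 299 and 482 CPM, against 295, 131 and 276 CPM in all members. CXCL14, a chemokine of barrier tissues, was at 412, 289 and 564 CPM in the group, against 360.2, 84 and 277 CPM in all members. SFRP2 was at 318, 172 and 217 CPM in the group, against 223, 59.3 and 123 CPM in all members. The highest animal was 1.61-fold above the lowest for IGF1 within the CLEC3B group, 2.89-fold within the INMT group and 2.25-fold in all members. In the INMT group the spread was 14.8-fold for CXCL14 and 5.46-fold for SFRP2. Within the INMT group, the per-animal values of SCN7A were 484, 306 and 325 CPM and those of INMT were 457, 302 and 287 CPM.

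Signals of other lineages were present and were measured. Among members 354 (33.1%) had a UMI of PTPRC, CD3E, CD79A, JCHAIN or EPCAM, 63 (5.89%) also passed a gate on CD3D, CD3E and CD3G, and 41 had a Scrublet doublet score of 0.2 or more, 37 of them in the immune-transcript group. That group held 41 of the CD3-gate cells, had TYROBP at 2044 CPM against 156 to 241 CPM in the other groups, and a median of 7713 UMIs, the highest of the 5. Left out, it took the summed immune list of members to 3574, 7364 and 1346 CPM, against 8922, 12112 and 7949 CPM in all other cells, and 3103 genes were higher and 3659 lower than in all other cells, against 3147 and 3639 with it. The summed list includes CD74 and was at 8417 CPM in the CCL2 group and 9666 CPM in the immune-transcript group. PTPRC was at 343 CPM in the immune-transcript group and 33.0 CPM in the other members, so that the sum did not follow PTPRC. Thinned to 2000 UMIs, 9.33%, 13.4% and 8.67% of members carried PTPRC, against 75.4%, 83.4% and 70.03% of CD3-gate cells (unthinned 21.5%, 28.7% and 19.9%, against 86.1%, 93.1% and 87.2%).

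SFTPC, the surfactant protein of alveolar epithelium, came from very few members. It was at 628, 63.3 and 2566 CPM in all members, and 6 cells with 10 or more SFTPC UMIs, 1 in replicate 1 and 5 in replicate 3, held 7345 of 7813 UMIs, or 94.0%. In these 6 cells SFTPC was at 252128 CPM and PIGR and NAPSA, also genes of that epithelium, at 6076 and 3467 CPM, while IGF1 and POSTN had no UMI, and the choosing genes gave 3 to 7 UMIs. Without them SFTPC was at 62.4, 63.3 and 73.1 CPM in members. A UMI of SFTPC was found in 10.3%, 9.55% and 14.8% of thinned members, no more than in CD3-gate cells (12.01%, 16.04% and 20.5%), so that outside these cells SFTPC was at the level of background. Unthinned, the shares were 34.6%, 32.8% and 36.7% of members and 22.1%, 29.6% and 35.7% of the shallower CD3-gate cells. The 6 cells clustered with the PCP4 group, whose other 310 cells had SFTPC at 67.1 CPM, PCP4 at 168 CPM, ACTA2 at 305 CPM and MYH11 at 33.8 CPM, against 66.2, 7.84, 76.2 and 3.02 CPM in the other groups together. Those 310 cells also had more MMP3 (434 CPM against 120 CPM), KRT14 (59.4 CPM against 15.3 CPM) and the division genes CENPF (61.8 CPM against 15.1 CPM) and TOP2A (98.0 CPM against 29.6 CPM). Of the 82 members that also passed the IGF2/MMP3 gate 46 were in the PCP4 group. Leaving out the 6 SFTPC-rich cells gave 3149 genes higher and 3644 lower than in all other cells.

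Contractile and mural markers were also present. All 8 mural markers tested were higher in MFAP4/FIBIN cells than in all other cells (list median 3.24), NDUFA4L2, a mitochondrial gene of pericytes, with 73.2, 79.6 and 87 CPM, against 2.79, 2.75 and 2.39 CPM (4.80 ± 0.13). The count of mural markers was 5 without the animal as a block, 4 among cells with no UMI of another lineage and 5 with cells matched on UMIs. Of 127 cells that passed a gate on mural genes 68 were members, 6.36% of the members. In those 68, DCN was at 1462 CPM, PDGFRA at 80.0 CPM and RGS5, a gene of pericytes, at 228 CPM. The same genes were at 1867, 74.4 and 15.7 CPM in the other members. In the 45 mural-gate cells outside both the MFAP4/FIBIN and the IGF2/MMP3 gate they were at 954, 50.7 and 813 CPM. NDUFA4L2 was at 636 CPM in the 68 members that passed the mural gate and at 38.03 CPM in the other members. Its level in all members thus came in part from those 68 cells. In the 45 mural-gate cells outside both gates NDUFA4L2 was at 410.6 CPM. RGS5 was one of the genes that chose the mural gate. Only 13, 22 and 10 mural-gate cells lay outside both other gates, and with a minimum of 20 cells per sum no test against them was possible. Leaving out the 68 cells gave 3090 genes higher and 3587 lower than in all other cells.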

How the data were processed

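The deposited values are raw UMI counts per feature and cell barcode, which the authors made with Cell Ranger (7.1.0 per the file headers, 8.0.0 per the submitters' processing notes). No label or header gives the aligner settings or genome build. Of 23189 features 11611 carried no gene symbol, with 37.2 to 38.4% of UMIs, and none of their IDs matched the RefSeq gene table, so gene lists use symbols only (317 of 440 listed genes were measured). A further edit named in the labels is not reported here.

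Cells were kept from 1000 UMIs and 500 genes upward when 13 mitochondrial genes held less than 20% of their UMIs, and doublets were not removed. The members and gene lists were chosen with earlier results of these data known. Counts were summed per animal and class (at least 20 cells) and tested in edgeR 4.0.16 (TMM, filterByExpr, quasi-likelihood F test, animal as a block, since both classes come from the same library, Benjamini-Hochberg adjustment, threshold 0.05), after a test on simulated data. DESeq2 1.42.0 was an alternative. Fold changes are log2 with SE, MFAP4/FIBIN cells over the comparison cells. The SE was derived from the quasi-likelihood test, as the absolute fold change over the square root of F. It is not a spread measured over the animals. Besides list members, the text names genes among the 12 highest and 12 lowest folds per comparison that passed, moved one way in 3 of 3 animals and reached 20 CPM. Groups within the members came from Leiden clustering (scanpy 1.11.5, resolution 0.5, 20 components of 1500 variable genes, 15 neighbours) without MFAP4 and FIBIN. The labels give each library its own animal, so the spread is between animals. The 3′ UMI counts carry no gene length, so levels are compared between cells and not between genes.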

Additional observations from a re-analysis of the deposited data

How the results depend on the processing

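Against all other cells, 3147 genes were higher and 3639 lower. Without the animal as a replicate block 2364 were higher and 2248 lower, and among cells with no UMI of another lineage 1816 and 1842. Leaving out each animal in turn gave 2641 to 2782 higher and 2970 to 3072 lower. Against IGF2/MMP3 cells, 2014 genes were higher and 1952 lower. Without the replicate block 1346 and 1104 were, with DESeq2 1306 and 1297, and with cells matched on UMIs 881 and 641. Leaving out each animal gave 1233 to 1958 higher and 1049 to 1748 lower, with replicate 3 the animal whose removal gave the fewest calls. The mean share of MFAP4/FIBIN cells was 4.28%, and 3.961 to 4.495% with 1 animal left out. It was 3.49% with the choosing threshold at 10 UMIs per 10000 and 3 UMIs. Members with no UMI of another lineage were on average 2.883% of all cells that passed quality control. That base still held the cells with such a UMI. Among cells with no such UMI, members numbered 222, 211 and 283 and others 1100, 740 and 1044.

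Over 2237 pairs of a named gene and an alternative, 2211 kept direction and side of the threshold and 23 no longer passed, 8 of these without the replicate block (COL1A1, with an edgeR adjusted p of 0.417, IGF2R, MMP9, SPP1 and TGFB1 against all other cells, and IFIT2, PDGFA and SFRP4 against IGF2/MMP3 cells). Results on single genes whose fold changed sign were those of COL1A1, DPP4 and TOP2A. COL1A1 against all other cells was at −1.234 among cells with no UMI of another lineage (edgeR adjusted p = 0.000163). DPP4 against all other cells was at 0.607 with cells chosen by SPARCL1 and IGF1 and did not pass (edgeR adjusted p = 0.0984). TOP2A against IGF2/MMP3 cells was at 0.2113 with matched UMIs and did not pass (edgeR adjusted p = 0.755). The cause was not tested. The test against mural-gate cells and its alternatives were not run, since 2 of 3 sums held under 20 cells. The alternatives without the immune-transcript group, without mural-gate members, without SFTPC-rich members, with the SPARCL1 and IGF1 gate and with library size scaling were chosen after seeing the data. Members held 2090670 to 2511396 UMIs per animal, which limits genes under a few CPM.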

Other observations

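CLEC3B and INMT name the groups with the most adventitial and alveolar marker transcripts, and some cells carried both. A CLEC3B UMI was found in 155 members (14.5%) and an INMT UMI in 223 (20.8%), and 28 cells had both, which is 18.1% of the CLEC3B cells and 12.6% of the INMT cells. CLEC3B and SCARA5, the second leading gene of its group, met in 65 cells, 41.9% of the CLEC3B cells and 52.8% of the SCARA5 cells. INMT and SCN7A met in 135 cells, 60.5% of the INMT cells. SCN7A, SCARA5 and the others differ in level, so that these shares are not set against each other.

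PIEZO2, a mechanically gated ion channel, gave 205 UMIs in MFAP4/FIBIN cells and 3 in IGF2/MMP3 cells, a ratio of CPM of 154 (exact 95% counting interval 52.1 to 755). SVEP1 gave 1036 and 11 UMIs, a ratio of 213 (118 to 428).

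Members that also passed the mural gate had ACTA2, smooth muscle actin, at 508 CPM, against 115 CPM in the other members. In mural-gate cells outside both the MFAP4/FIBIN and the IGF2/MMP3 gate ACTA2 was at 1360 CPM. IGF1 was at 172 CPM in members that passed the mural gate, against 235 CPM in the other members and 90.6 CPM in those mural-gate cells outside both gates.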
